A study of Mus musculus with 10 samples.

Results

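The interleukin-1 (IL-1) family and its receptors were followed in the mouse uterus through 10 genes, chosen by symbol from the deposited gene table: *Il1a*, *Il1b*, *Il1rn*, *Il1f9*, *Il18*, *Il33*, *Il1r1*, *Il1r2*, *Il1rap* and *Il1rl1*. All 10 are among the 29268 genes of the table, and all 10 had enough counts to be among the 16993 genes tested. RNA was sequenced from the uterus of 5 HSD17B1TG and 5 WT mice at 4 months of age, 1 library per mouse. The HSD17B1TG females carry the human *HSD17B1* cDNA as a transgene, driven in all tissues by the chicken beta actin promoter with a CMV enhancer, on the FVB/N strain, in a line kept heterozygous. Human HSD17B1 converts estrone to estradiol. The WT mice lack the transgene. The study describes HSD17B1TG females as not cycling, and the labels give no cycle stage for the WT mice, so genotype and cycle state cannot be told apart here. Individual mice are named TG1 to TG5 (HSD17B1TG) and WT1 to WT5 (WT), numbered in the order of deposit, which pairs no mice.

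IL-1α and IL-1β, encoded by *Il1a* and *Il1b*, both bind the receptor IL1R1, which then recruits the accessory protein IL1RAP and signals through MYD88 and IRAK kinases to NF-κB. IL1RN occupies IL1R1 without signalling, and IL1R2 is a decoy that binds IL-1 but lacks the intracellular signalling domain. IL-1α acts as an alarmin of epithelial cells and is active without cleavage, whereas IL-1β and IL-18 are released after cleavage by caspase-1 in inflammasomes. *Il1f9* encodes an epithelial cytokine of the IL-36 branch of the family, and *Il33* a nuclear alarmin whose receptor is encoded by *Il1rl1*.

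The libraries held 14817228 to 23271988 gene counts. Of the whole-uterus marker lists, the summed FPKM (fragment counts scaled for gene length and library size) of simple epithelial markers was 751 to 3532 in HSD17B1TG and 528 to 1808 in WT, and smooth muscle markers reached from 377 to 6855 over all mice. In bulk tissue, more cells of a type and more RNA per cell cannot be told apart. The human transgene is not counted by the mouse annotation, so the counts do not check the genotype.

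The members sit in gene clusters. On chromosome 2 of GRCm38, *Il1f9* (24186476 to 24193568, plus strand) and *Il1rn* (24336853 to 24351494, plus strand) lie in 1 cluster. The family gene *Il1f8* (24153161 to 24160519), which is no member, lies before *Il1f9*. *Il1a* (129299610 to 129309972, minus strand) and *Il1b* (129364570 to 129371139, minus strand) form another cluster. On chromosome 1, *Il1r2* (40074079 to 40125231), *Il1r1* (40225080 to 40317257) and *Il1rl1* (40429570 to 40465415) lie in a row on the plus strand. *Il1rap* is on chromosome 16 from 26581704 to 26730117, *Il18* on chromosome 9 from 50554827 to 50581840 and *Il33* on chromosome 19 from 29925114 to 29960718. The 250 bases before the start sites of the members on chromosome 2 are shown because these genes lie in clusters and their RNA differed unequally between the groups. The sequences are from RefSeq on GRCm38.p6, 5′ to 3′ on the strand of the gene. Capitals mark the AP-1 motif TGANTCA, a site of the JUN and FOS transcription factors.
*Il1a* (chr2:129309973-129310222, minus strand): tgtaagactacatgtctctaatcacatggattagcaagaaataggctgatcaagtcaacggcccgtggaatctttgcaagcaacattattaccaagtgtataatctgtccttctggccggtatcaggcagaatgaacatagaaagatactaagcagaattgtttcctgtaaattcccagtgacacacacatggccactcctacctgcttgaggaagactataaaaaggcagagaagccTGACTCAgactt
*Il1b* (chr2:129371140-129371389, minus strand): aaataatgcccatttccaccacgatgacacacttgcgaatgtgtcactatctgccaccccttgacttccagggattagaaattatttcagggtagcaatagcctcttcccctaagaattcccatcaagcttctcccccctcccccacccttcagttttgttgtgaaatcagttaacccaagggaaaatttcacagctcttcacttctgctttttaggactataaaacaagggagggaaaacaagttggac
*Il1f9* (chr2:24186226-24186475, plus strand): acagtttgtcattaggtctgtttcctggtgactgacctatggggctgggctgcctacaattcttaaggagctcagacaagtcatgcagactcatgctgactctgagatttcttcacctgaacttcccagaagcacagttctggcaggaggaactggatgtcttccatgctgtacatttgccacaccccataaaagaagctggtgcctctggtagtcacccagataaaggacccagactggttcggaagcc
*Il1rn* (chr2:24336610-24336859, plus strand, the first of 3 start sites): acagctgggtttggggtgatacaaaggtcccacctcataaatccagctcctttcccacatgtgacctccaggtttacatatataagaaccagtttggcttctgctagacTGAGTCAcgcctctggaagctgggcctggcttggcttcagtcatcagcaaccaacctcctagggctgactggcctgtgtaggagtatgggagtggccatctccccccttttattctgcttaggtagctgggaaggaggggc

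Motifs were searched on both strands in these 250 bases: TGANTCA for AP-1, GGG and TTTCC with any 2 bases between for NF-κB, and GGTCA and TGACC with any 3 bases between for the estrogen response element. RefSeq windows were found for all 10 members, 15 windows in all. The AP-1 motif was in the windows of *Il1a*, 12 to 6 bases before the start, and of *Il1rn*, 141 to 135 bases before the first start, and it is in 6.75% of all 32851 windows. The NF-κB motif was in 1 window, the third of *Il1rn*, 51 to 42 bases before that start, against 1.41% of all windows. The estrogen response element was in no window of a member and in 0.0639% of all windows. A match is a run of letters and says nothing of binding.

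In the HSD17B1TG uterus *Il1a* and *Il1f9* were higher and the decoy receptor gene *Il1r2* was lower. These were the 2 members called up and the 1 called down, where over all genes tested 2.16% were called up, 2.08% down and 4.24% either way. Of the 10 fits without 1 mouse, the call of *Il1a* held in 10, of *Il1f9* in 3 and of *Il1r2* in 2. The members were written down with earlier results of these data known, so their counts do not test whether the family stands out. DESeq2 called the same 3 members, where it called 4.17% of its genes up and 3.07% down. Calls asked for an adjusted p under 0.05 in edgeR's quasi-likelihood test, a change of more than 2-fold, and more than 1 FPKM on average in HSD17B1TG or WT. The other 7 members were not called. At an unadjusted p-value under 0.05 stood 6 members higher and 2 lower in HSD17B1TG, against 14.7% and 11.4% of all genes tested. By FPKM all HSD17B1TG mice lay above all WT mice in 2 members, *Il1a* and *Il1f9*, and below them in 0, against 4.04% and 2.65% of all genes tested. In *Il1f9* this rests on TG1 with 14 counts against 10 in WT4. Every cytokine and antagonist gene had a log2 fold change above 0 and each of the 4 receptor genes among the members one below 0, except that the value of *Il1rl1* turned positive without TG3 or without WT4. This does not extend to the other tested receptor genes of the family, *Il18r1*, *Il18rap*, *Sigirr* and *Il1rl2*, whose log2 fold changes were 1.19, 1.24, 0.99 and 0.08, the last of which was -0.06 without TG2 and -0.03 without WT3.

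**Figure D1:**
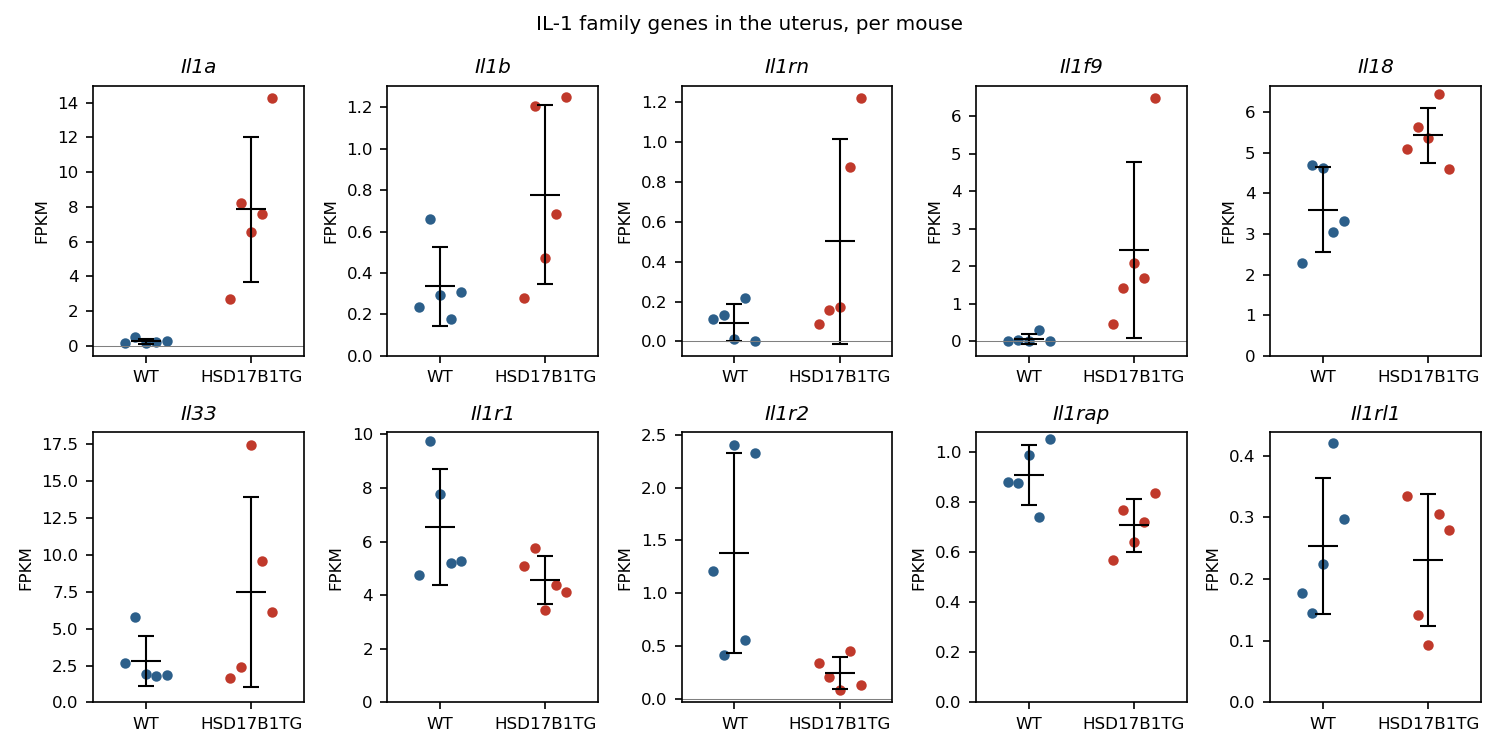
FPKM of each member (linear axis from 0) in the 5 WT mice (blue) and the 5 HSD17B1TG mice (red), 1 point per mouse, with the mean and SD as black bars. The groups do not overlap in *Il1a* and *Il1f9*, though in *Il1f9* TG1 (14 counts) and WT4 (10 counts) are close. In *Il1r2* only TG4 reaches the range of the WT mice.

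*Il1a* (ENSMUSG00000027399) had 0.165, 0.480, 0.157, 0.196 and 0.272 FPKM in WT1 to WT5. In TG1 to TG5 it had 2.69, 8.21, 6.54, 7.57 and 14.3 FPKM. The lowest HSD17B1TG mouse thus lay above the highest WT mouse, and the HSD17B1TG mice themselves spread 5.30-fold between TG1 and TG5. The means were 7.85 ± 4.17 FPKM in HSD17B1TG and 0.254 ± 0.134 FPKM in WT (SD, n = 5), a ratio of 30.9. The log2 fold change was 4.93 (SE 0.51, adjusted p = 0.00956 in edgeR), and by p-value *Il1a* stood at rank 2 of all genes tested. Leaving out any 1 of the 10 mice kept the call, with log2 fold changes from 4.60 to 5.26, which was so for 0.294% of all genes tested. The WT values rest on 5 to 18 counts per mouse. *Il1a* passed the filter on low counts through the HSD17B1TG mice, with 5 of them and 2 of the WT mice at the level asked for. *Gm14023*, on the other strand, overlaps *Il1a* and had 85 counts over all mice against 1353 for *Il1a*.

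*Il1b* (ENSMUSG00000027398), the partner of *Il1a* at the same receptor and its neighbour on the chromosome, was low in both groups. It had 0.235, 0.662, 0.293, 0.178 and 0.307 FPKM in WT1 to WT5. The HSD17B1TG mice TG1 to TG5 had 0.281, 1.21, 0.474, 0.683 and 1.25 FPKM. The groups overlapped, and 3 of the 5 HSD17B1TG mice lay above every WT mouse. Its log2 fold change was 1.20 (SE 0.51), and it was not called (adjusted p = 0.165 in edgeR). It rests on 7 to 40 counts per mouse, and the antisense gene *Il1bos* had 45 counts over all mice against 188 for *Il1b*.

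The ratio of *Il1a* to *Il1b* within a mouse does not depend on the scaling between mice. It was 0.703, 0.725, 0.537, 1.10 and 0.886 in WT1 to WT5. In TG1 to TG5 it was 9.56, 6.81, 13.8, 11.1 and 11.4. In WT the transcripts of the cytokine pair were thus at like levels per length, and in each HSD17B1TG mouse *Il1a* exceeded *Il1b*. The HSD17B1TG range did not overlap that of WT, and no test was made of this ratio.

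**Figure D2:**
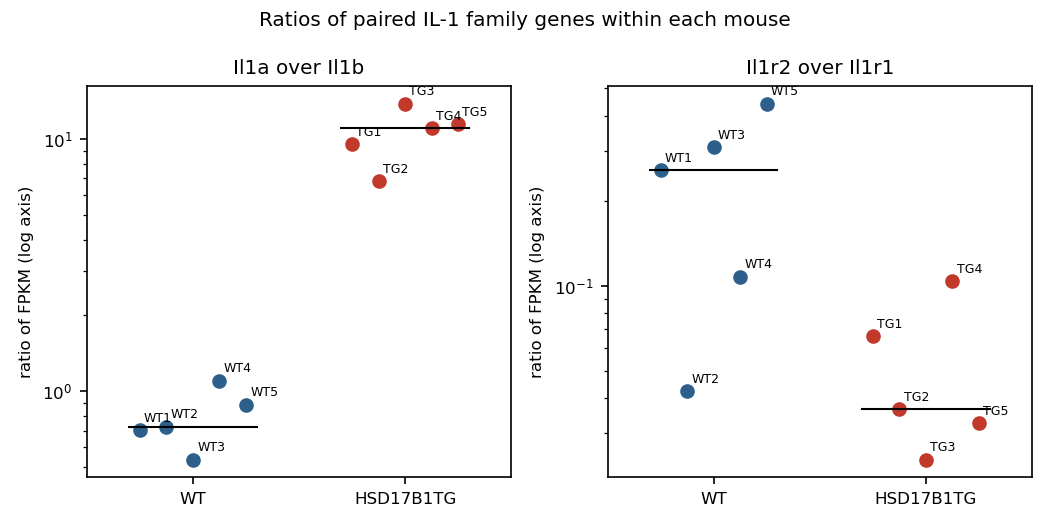
Ratio of FPKM within each mouse (log axis) for *Il1a* over *Il1b* and for *Il1r2* over *Il1r1*, with 1 named point per mouse and the group median as a line. For *Il1a* over *Il1b* all HSD17B1TG mice lie from 6.81 to 13.8 and all WT mice from 0.537 to 1.10, and for *Il1r2* over *Il1r1* the groups overlap.

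*Il1f9* (ENSMUSG00000044103) was close to absent in WT. It had 0 counts in WT1, WT3 and WT5, 1 count in WT2 and 10 counts in WT4, which is 0.294 FPKM. A count of 0 allows up to 3 counts, which in these mice is 0.0740 to 0.113 FPKM. In TG1 to TG5 it had 0.456, 1.43, 2.10, 1.69 and 6.47 FPKM, so that each HSD17B1TG mouse lay above WT4. TG1 had 14 counts against the 10 of WT4, which is not beyond counting error. The means were 2.43 ± 2.34 FPKM in HSD17B1TG and 0.0652 ± 0.129 FPKM in WT (SD, n = 5). The log2 fold change was 5.12 (SE 1.11, adjusted p = 0.0321 in edgeR), a size that depends on WT4 and on TG5, since it was 7.69 without WT4 and 4.34 without TG5. The call held without TG1, TG3 or WT4 and ended without any 1 of the other 7 mice (adjusted p from 0.0612 to 0.0810 in edgeR). *Il1f9* passed the filter on low counts through the HSD17B1TG mice alone, with 5 of them and 0 of the WT mice at the level asked for.

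*Il1rn* (ENSMUSG00000026981), the antagonist at IL1R1, had 0.110, 0.133, 0.0112, 0.219 and 0 FPKM in WT1 to WT5. Among HSD17B1TG, TG1 to TG5 had 0.0872, 0.156, 0.173, 0.874 and 1.22 FPKM. Only TG4 and TG5 lay above every WT mouse, and the remaining 3 HSD17B1TG mice were within the WT range. The log2 fold change was 2.38 (SE 1.00) and was not called (adjusted p = 0.164 in edgeR). Without TG5 it was 1.74. The ratio of *Il1a* to *Il1rn* was 30.8, 52.7 and 37.9 in TG1 to TG3 and 8.66 and 11.7 in TG4 and TG5. It was 0.897 to 3.61 in WT1, WT2 and WT4, while WT3, with 1 count of *Il1rn*, lay above TG4 and TG5, and WT5 had no count of *Il1rn*. The groups overlapped. The secreted and intracellular forms of the antagonist come from separate start sites, which a count per gene does not tell apart.

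*Il18* (ENSMUSG00000039217) and *Il33* (ENSMUSG00000024810) were among the members with the highest levels per length in both groups. *Il18* had 2.29, 4.70, 4.63, 3.05 and 3.31 FPKM in WT1 to WT5 and 5.10, 5.63, 5.36, 6.44 and 4.61 FPKM in TG1 to TG5. All HSD17B1TG mice but TG5 lay above every WT mouse, and its log2 fold change of 0.59 (SE 0.26) missed the call (adjusted p = 0.178 in edgeR). *Bco2* on the other strand overlaps *Il18* and had 184 counts over all mice against 846. *Il18* was the steadiest member in HSD17B1TG, with a highest value 1.40 times the lowest.

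*Il33* varied far more between mice of the same group. It had 2.68, 5.78, 1.96, 1.76 and 1.88 FPKM in WT1 to WT5. The values of TG1 to TG5 were 1.64, 2.43, 17.5, 9.61 and 6.14 FPKM. TG1 lay below every WT mouse while TG3, TG4 and TG5 lay above every one. The log2 fold change of 1.39 (SE 0.62) was not called (adjusted p = 0.182 in edgeR), and it was 0.79 without TG3.

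*Il1r2* (ENSMUSG00000026073), the decoy receptor, had 1.22, 0.414, 2.40, 0.558 and 2.33 FPKM in WT1 to WT5. TG1 to TG5 had 0.337, 0.211, 0.0836, 0.455 and 0.135 FPKM. WT1, WT3 and WT5 were high and WT2 and WT4 low, and 4 of the 5 HSD17B1TG mice lay below every WT mouse. The means were 0.244 ± 0.152 FPKM in HSD17B1TG and 1.38 ± 0.947 FPKM in WT (SD, n = 5). The log2 fold change was -2.49 (SE 0.63, adjusted p = 0.0445 in edgeR). The call held without TG1 or WT4 and ended without any 1 of the other 8 mice (adjusted p from 0.0586 to 0.104 in edgeR), and limma's voom did not call it (adjusted p = 0.0791). HSD17B1TG mice had 3 to 14 counts of *Il1r2*, and its antisense gene *Gm16894* had 41 counts over all mice against 299. *Il1r2* passed the filter on low counts through the WT mice, with 5 of them and 2 of the HSD17B1TG mice at the level asked for.

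*Il1r1* (ENSMUSG00000026072), the signalling receptor, had 4.74, 9.75, 7.78, 5.18 and 5.29 FPKM in WT1 to WT5. TG1 to TG5 had 5.10, 5.76, 3.45, 4.40 and 4.12 FPKM. The groups overlapped through TG1 and TG2, and the log2 fold change of -0.53 (SE 0.23) was not called (adjusted p = 0.180 in edgeR). The ratio of the decoy to the signalling receptor, *Il1r2* to *Il1r1*, was 0.257, 0.0424, 0.309, 0.108 and 0.440 in WT1 to WT5. In TG1 to TG5 it was 0.0661, 0.0366, 0.0242, 0.104 and 0.0327, and WT2 and WT4 fell in or near that range.

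*Il1rap* (ENSMUSG00000022514), the shared accessory chain, varied little. It had 0.567 to 0.837 FPKM in HSD17B1TG and 0.742 to 1.05 in WT, with a log2 fold change of -0.37 (SE 0.19, adjusted p = 0.252 in edgeR). *Il1rl1* (ENSMUSG00000026069), the receptor for IL-33 on mast cells and some lymphocytes, had 0.0925 to 0.335 FPKM in HSD17B1TG and 0.145 to 0.421 in WT. Its log2 fold change was -0.14 (SE 0.43, adjusted p = 0.871 in edgeR). *Il1rl1* had 12 to 60 counts per mouse.

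**Figure D3:**
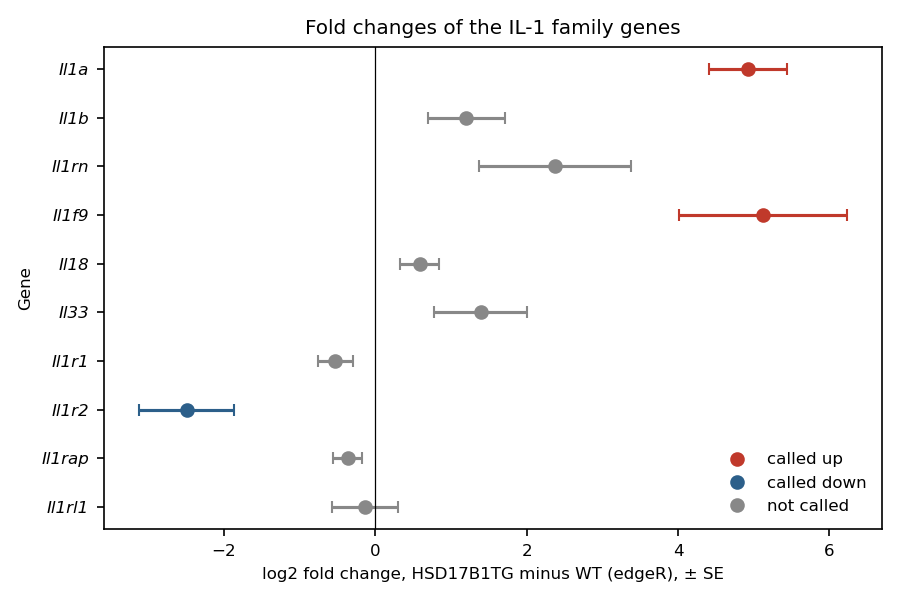
Log2 fold change of each member, HSD17B1TG minus WT, from edgeR with its SE as bars. *Il1a* at 4.93 and *Il1f9* at 5.12 were called up (red), *Il1r2* at -2.49 was called down (blue), and the 7 grey genes were not called.

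Per length, the order of the levels differed between the groups. In WT *Il1r1* was the highest member with a mean of 6.55 FPKM, followed by *Il18* with 3.60, *Il33* with 2.81 and *Il1r2* with 1.38. *Il18* and *Il33* overlapped in their WT ranges, so their order is not beyond the spread, and the same holds for *Il33* and *Il1r2*. *Il1a* held place 7 of the 10 and *Il1f9* place 10. These places are not beyond the spread either. *Il1a*, with a WT mean of 0.254, overlapped *Il1rl1* at 0.253 and *Il1b* at 0.335, and *Il1f9* overlapped *Il1rn*. In HSD17B1TG the order began with *Il1a* at 7.85, *Il33* at 7.45, *Il18* at 5.43 and *Il1r1* at 4.57, and each neighbour in this row overlapped the next. *Il1a* made up a mean of 25.05% of the summed FPKM of the 10 members in HSD17B1TG and 1.53% in WT. Within HSD17B1TG, TG5 was the highest mouse for *Il1a*, *Il1b*, *Il1rn*, *Il1f9* and *Il1rap*, and TG1 the lowest for 6 of the 10 members. Within WT, WT2 was the highest for *Il1a*, *Il1b*, *Il18*, *Il33* and *Il1r1*.

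The mice also differed in cell type markers. All 10 simple epithelial markers, such as *Epcam* and *Krt19*, had log2 fold changes above 0 with a median of 1.34. In edgeR 0 of them were called and 7 had an unadjusted p-value under 0.05, and DESeq2 called 3 up, *Cdh1*, *Cldn4* and *Cldn7*. Per 1000 FPKM of summed simple epithelial markers, *Il1a* stood at 2.42 to 4.04 FPKM in HSD17B1TG and 0.109 to 0.570 in WT. *Il1f9* stood at 0.581 to 1.83 in HSD17B1TG and 0 to 0.163 in WT. The part of simple epithelial cells in the result was not tested. Of 11 squamous epithelial markers 7 were tested, with 5 log2 fold changes above 0 and 2 below, *Lor* at -0.76 and *Trp63* at -0.53. *Krt4*, not tested for its low counts, had 5 counts over the HSD17B1TG mice and 37 over the WT mice. *Krt13* alone was called up. *Krt1* had a log2 fold change of 2.73 (adjusted p = 0.0227 in edgeR) and no overlap between the groups, but missed the call because its mean was not above 1 FPKM. Their summed FPKM was 7.06 to 46.6 in HSD17B1TG and 6.87 to 10.8 in WT, with TG1 at the WT level, and their part in the result was not tested.

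Neutrophil markers were at low levels, with summed FPKM of 7.74 to 13.95 in HSD17B1TG and 0.619 to 5.10 in WT. Of the 10 markers 4 were tested, and all 4 had log2 fold changes above 0 with a median of 1.54. In edgeR 0 were called and 1 had an unadjusted p-value under 0.05, and DESeq2 called 1 up, *S100a9*. The HSD17B1TG mean of *S100a9* was 2.58 FPKM against 0.269 (log2 fold change 3.20, adjusted p = 0.0967 in edgeR). TG1 had 7.71 FPKM of *S100a9* and TG2 to TG5 had 0.551 to 1.73, and the log2 fold change was 2.21 without TG1 and 4.99 without WT2. For *Ly6g* the means were 5.59 and 1.27 FPKM (log2 fold change 2.12, adjusted p = 0.236 in edgeR), and the log2 fold change was 3.13 without WT4. *Retnlg* and *Ngp*, which define granulocytes, were at 0 in every WT mouse and in 4 and 3 of the HSD17B1TG mice. *Il1a* per 1000 FPKM of these markers overlapped between the groups, with 193 to 1263 FPKM in HSD17B1TG and 38.4 to 254 in WT. The part of neutrophils in the result was not tested. Macrophage and monocyte markers overlapped between the groups in their sum, at 174 to 297 and 154 to 229 FPKM, with *Cd68* called up and *Mertk* called down among 10 tested. DESeq2 also called *Ccr2* down. Eosinophil markers were near 0, at 0.0679 to 0.730 FPKM over all mice.

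Markers of other cells moved beside *Il1r2*. Of 7 stromal markers 3 were called down in edgeR (*Pdgfra*, *Hoxa11* and *Hand2*), and of 6 natural killer markers 4 were called down (*Ncr1*, *Eomes*, *Prf1* and *Gzmb*). Over all genes tested 2.08% were called down. Of the stromal markers 6 had log2 fold changes below 0, with *Dcn* near 0 at -0.10, and 1, *Lum*, had 0.51. The summed stromal markers overlapped between the groups, at 474 to 1840 FPKM in HSD17B1TG and 1367 to 1788 in WT. DESeq2 also called *Col1a1* and *Klrd1* down, 4 stromal and 5 natural killer markers in all. The summed natural killer markers were 1.82 to 7.62 FPKM in HSD17B1TG and 8.18 to 80.8 in WT. Per 1000 FPKM of natural killer markers, *Il1r2* stood at 27.7 to 209 in HSD17B1TG and 22.4 to 68.3 in WT, and per 1000 FPKM of stromal markers at 0.107 to 0.424 and 0.303 to 1.74. The groups overlapped on both scales. Per 1000 FPKM of neutrophil markers, *Il1r2* stood at 6.30 to 49.9 in HSD17B1TG and 97.7 to 3882 in WT, without overlap. The WT values on this scale rest on low marker sums, with 0.619 FPKM in WT3 and 1.78 in WT5. Endothelial markers overlapped between the groups in their sum. Of the 7, edgeR called 0, with 3 lower and 1 higher at an unadjusted p-value under 0.05, and DESeq2 called *Emcn* down. Of the 8 mast cell markers *Kit* and *Hdc* were called down, while *Cpa3*, *Mcpt4*, *Tpsb2* and *Tpsab1* had log2 fold changes from -0.09 to 0.54 and were not called. With each mouse left out, their values ranged from -0.40 to 1.71. Of 4 all-leucocyte markers *Laptm5* was called up in edgeR. The other 3 had log2 fold changes below 0 with unadjusted p-values under 0.05, and DESeq2 called 2 of them down, *Ptprc* and *Cd52*. For muscle, both edgeR and DESeq2 called 0 of the 5 smooth muscle markers, 0 of which had an unadjusted p-value under 0.05 in edgeR. Most of these marker calls ended without single mice. Of the 10 fits without 1 mouse, *Prf1* was called in 10, *Hand2* in 9 and *Pdgfra* in 7. *Hoxa11*, *Eomes*, *Mertk* and *Laptm5* were called in 4, *Cd68*, *Kit*, *Hdc* and *Ncr1* in 3, and *Krt13* and *Gzmb* in 2. The part of these cells in the result was not tested.

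The nearest patterns among all genes tested were found by the mean absolute difference of log2 CPM (counts scaled to library size) over the 10 mice, each gene centred on its own mean. For *Il1a* these were *Tnfrsf8*, *Ltbp2* and *Tnip3*, at 0.41, 0.57 and 0.58, against a median of 2.30 over all genes. *Prss32*, *Ptprh* and *Dbpht2* came nearest to *Il1f9*, at 0.39, 0.42 and 0.52 against a median of 2.13. For *Il1r2* they were *Aplnr*, *Vgll3* and *Atp8b4*, at 0.30, 0.33 and 0.38 against a median of 1.16. The measure favours genes with a like fold change and is a description over 10 mice.

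Other genes of the family lie in these clusters and elsewhere. Of 11 other family genes 6 were tested, all 6 had log2 fold changes above 0 with a median of 1.09, and 0 were called in edgeR, while 3 of them had an unadjusted p-value under 0.05. The median over all genes tested was 0.00. DESeq2's Wald test called 1 of them up, *Il1f6*. *Il1f6*, another IL-36 cytokine gene between *Il1f9* and *Il1rn*, had 0.691, 1.01, 0, 3.02 and 7.30 FPKM in WT1 to WT5. The HSD17B1TG mice had 5.10, 16.7, 11.4, 16.5 and 40.4 FPKM, so that only TG1 overlapped with WT. Its log2 fold change was 2.90 (SE 0.96, adjusted p = 0.0900 in edgeR), and it was 3.89 without WT5 and 2.36 without TG5. *Sigirr*, an inhibitory receptor of the family, had 13.6 ± 5.12 FPKM in HSD17B1TG and 6.83 ± 1.75 FPKM in WT (SD, n = 5). On the log2 scale the difference was 0.99 (SE 0.30, adjusted p = 0.0688 in edgeR). In the chromosome 1 cluster *Il1rl2*, the receptor for IL-36 cytokines, had a log2 fold change of 0.08, and the genes of the IL-18 receptor, *Il18r1* and *Il18rap*, had 1.19 and 1.24, and edgeR called none of them. These receptor genes were named after their values were seen.

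Genes that act on or below the family were followed in 3 further lists, with 86 genes in all 4 lists, 84 of them in the table and 72 tested. Of the 72, 10 were called up and 1 down. Over all genes tested 2.16% were called up and 2.08% down. The lists were written with earlier results of these data known, so the counts do not test whether the pathway stands out. The 72 had a median log2 fold change of 0.31. The count called up depended on single mice, with 1 without TG2, TG5, WT2 or WT3, 2 without WT1, 3 without TG4 or WT5, 15 without TG1 and 16 without WT4.

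**Figure D4:**
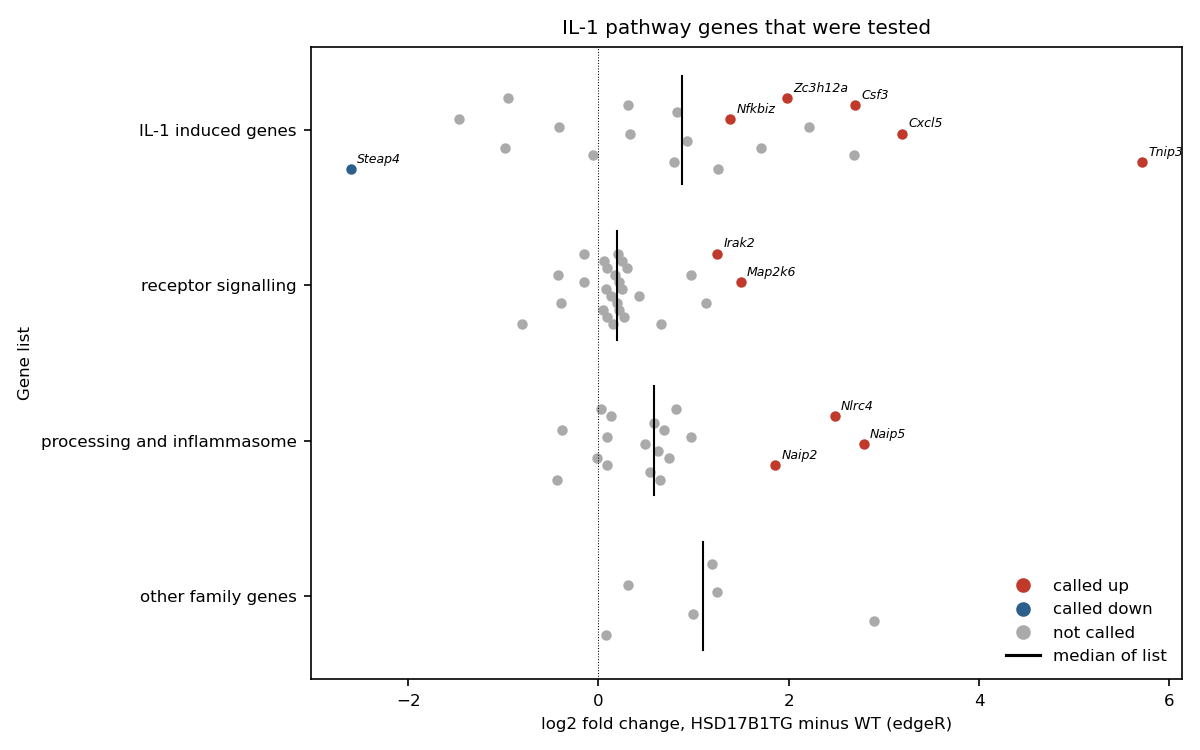
Log2 fold changes, HSD17B1TG minus WT, of the 72 tested genes of the 4 lists, 1 point per gene, with the median of each list as a black line. Genes called up are red, *Steap4*, the 1 gene called down, is blue, and *Tnip3* at 5.72 is farthest to the right.

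Among genes of cytokine processing and inflammasomes, 19 of 22 were tested, 16 had log2 fold changes above 0 and 3 were called up. These were *Nlrc4*, *Naip5* and *Naip2*, which encode the scaffold and the sensors of the inflammasome that responds to bacterial flagellin and secretion systems. *Nlrc4* had 2.81 ± 1.37 FPKM in HSD17B1TG and 0.501 ± 0.313 FPKM in WT (SD, n = 5). On the log2 scale the difference was 2.48 (SE 0.46, adjusted p = 0.0227 in edgeR). *Naip5* had 19.1 ± 11.4 FPKM in HSD17B1TG and 2.76 ± 1.28 FPKM in WT (SD, n = 5). On the log2 scale the difference was 2.79 (SE 0.51, adjusted p = 0.0219 in edgeR). In both genes all HSD17B1TG values exceeded all WT values, as in 4.04% of all genes tested. *Naip2* had a log2 fold change of 1.86 (adjusted p = 0.0445 in edgeR), and the *Naip* genes are similar copies between which the counting could have split reads. *Casp1*, the protease that cleaves IL-1β and IL-18, had 25.4 ± 9.20 FPKM in HSD17B1TG and 17.0 ± 4.33 FPKM in WT (SD, n = 5) and was not called (log2 fold change 0.58, adjusted p = 0.215 in edgeR). *Nlrp3*, the sensor of the best known inflammasome, had a log2 fold change of 0.81 (adjusted p = 0.392 in edgeR) at 0.442 and 0.249 FPKM. *Casp1* and *Nlrp3* were named after their values were seen.

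In the list of receptor signalling, all 27 genes were tested, 22 had log2 fold changes above 0 and 2 were called up, with a list median of 0.20. *Irak2*, a kinase of the receptor complex, had 14.7 ± 2.76 FPKM in HSD17B1TG and 6.18 ± 2.68 FPKM in WT (SD, n = 5). On the log2 scale the difference was 1.25 (SE 0.30, adjusted p = 0.0393 in edgeR). *Map2k6*, the kinase that activates p38, had 12.5 ± 4.43 FPKM in HSD17B1TG and 4.41 ± 1.22 FPKM in WT (SD, n = 5). The adjusted p was 0.0256 in edgeR. In both genes the groups did not overlap. The adaptor gene *Myd88* and the kinase gene *Irak1*, named after their values were seen, had log2 fold changes of -0.42 and -0.15 and were not called. The value of *Myd88* rested on WT3, which had 63.3 FPKM, and it was 0.30 without WT3.

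Of 26 genes known to be induced by IL-1, 20 were tested, 14 had log2 fold changes above 0, 5 were called up and 1 down. *Tnip3*, an inhibitor of NF-κB signalling, was also one of the genes nearest to *Il1a*. It averaged 2.02 ± 1.53 FPKM in HSD17B1TG and 0.0376 ± 0.0259 FPKM in WT (SD, n = 5), and the groups did not overlap. Its log2 fold change was 5.72 (SE 0.66, adjusted p = 0.00956 in edgeR). *Csf3*, the granulocyte growth factor, had 24.1 ± 18.9 FPKM in HSD17B1TG and 3.72 ± 2.12 FPKM in WT (SD, n = 5). On the log2 scale the difference was 2.69 (SE 0.61, adjusted p = 0.0345 in edgeR), with no overlap between the groups. *Cxcl5*, a chemokine for neutrophils, had a log2 fold change of 3.19 (SE 0.84, adjusted p = 0.0494 in edgeR). TG5 alone had 14.9 FPKM, and without TG5 the log2 fold change was 1.83 and not called (adjusted p = 0.0914 in edgeR). Its call held in 3 of the 10 fits without 1 mouse. *Nfkbiz*, a nuclear cofactor of NF-κB, and *Zc3h12a*, an RNase that degrades cytokine mRNAs, had log2 fold changes of 1.38 and 1.98 (adjusted p = 0.0348 and 0.0429 in edgeR). *Steap4*, a metalloreductase, had 32.3 ± 33.9 FPKM in WT and 5.35 ± 2.19 FPKM in HSD17B1TG (SD, n = 5). It fell by 2.60 on the log2 scale (adjusted p = 0.0460 in edgeR). The call held without WT4 and ended without any 1 of the other 9 mice (adjusted p from 0.0518 to 0.104 in edgeR). WT3 alone had 89.8 FPKM, and without WT3 the log2 fold change was -1.78.

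Not all genes of this list went the same way. *Csf2* and *Saa1*, which were not tested for their low counts and are named after their values were seen, lay in opposite directions. *Csf2* had 5 to 10 counts in TG2 to TG5, 1 count in TG1, and 0 or 1 count in each WT mouse, so TG1 was not apart from WT. *Saa1* had 0 counts in all 5 HSD17B1TG mice and 3 to 46 in the WT mice. A count of 0 allows up to 3 counts, so WT4, with 3, was not apart from HSD17B1TG. *Il6*, also named after its values were seen, had 1 count over the HSD17B1TG mice and 12 over the WT mice, 11 of them in WT3. Of the 10 genes called up in the 4 lists, *Tnip3* was called in each of the 10 fits without 1 mouse, *Naip5* in 6, *Csf3* in 4 and the other 7 in 2 or 3.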

How the data were processed

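RNA-seq libraries were made from the uteri of 5 HSD17B1TG and 5 WT females, and the authors aligned the read pairs to GRCm38 (Ensembl gene models) with HISAT2 (2.0.5, per the submitters' processing notes). The authors deposited unnormalized gene counts per mouse and FPKM, which were scaled by 1 size factor per mouse rather than by its own total. How reads were counted, and whether by strand, is not given in the sources used here, so reads of overlapping antisense genes cannot be told apart. Coordinates of 28447 of 29268 genes and of all 10 members were the same in GENCODE M21. Columns and tables of the authors' own comparison (fold changes, p-values and enriched terms) and a shorter table of genes chosen by it were not used.

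Samples were grouped by the strain in their labels. After filterByExpr and TMM scaling, counts went into the quasi-likelihood test of edgeR 4.0.16 (R 4.3.3), with Benjamini-Hochberg adjustment over 16993 genes. The SE is the log2 fold change divided by the square root of the F statistic. The members and gene lists were written by hand, with earlier results of these data known. Named were all members, each called gene of the 4 pathway lists or the 2 with the smallest p where none was called, and the 3 genes nearest to each called member. Cell type markers named are those called by edgeR or DESeq2 or chosen after their values were seen, as is said of other genes outside this rule. Alternatives were DESeq2 1.42.0, limma 3.58.1 (voom, and log2(FPKM + 1) or log2(FPKM + 0.1)), other normalizations, filters and thresholds, and each mouse left out in turn. The fits were tested on simulated counts. Intervals of depth (total counts of 14817228 to 23271988 per mouse) and the limit of 3 counts cover counting error only.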

Additional observations from a re-analysis of the deposited data

Results flagged for a closer look

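Within a group of 5 mice, a value was marked where its gap to the nearest mouse exceeded 0.71 of the range of the group (Dixon's 95% limit). Of 20 groups of member values looked at, 4 values were marked, and chance marks about 1 in 20 groups. WT2 stood above the other WT mice in *Il1b*, with 0.662 FPKM, and in *Il33*, with 5.78 FPKM. In *Il1f9*, TG5 stood above the other HSD17B1TG mice with 6.47 FPKM, and WT4 above the other WT mice with 0.294 FPKM, where the remaining WT mice had 0 or 1 count. Without WT2 the log2 fold change of *Il33* was 1.82 and that of *Il1b* 1.58, and neither was called.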

How the results depend on the processing

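Of 176 values of member log2 fold changes under the alternatives, 156 kept their direction and their side of an adjusted p-value of 0.05, 18 lost significance and 2 changed sign. The 18 are those of *Il1f9* (7) and *Il1r2* (11), and the 2 are those of *Il1rl1*, 0.04 without TG3 and 0.12 without WT4, in a range of -0.31 to 0.12 with each mouse left out. *Il1a* was called under every alternative run. The number of members called up was 1 under a filter of at least 1 CPM in 5 mice, which does not test *Il1b*, *Il1rn*, *Il1f9* or *Il1r2*, and 1 to 2 with each mouse left out. The number called down was 0 under that filter, with no filter, under voom and on log2(FPKM + 1), and 0 to 1 with each mouse left out. DESeq2 called the same 3 members, against 4.17% of its genes called up and 3.07% down. Of the pathway genes, 1 to 16 were called up with each mouse left out. The number called down was 0 under voom and under both FPKM fits, and 0 to 1 with each mouse left out. For these losses the cause was not tested, except that fewer mice enter each fit with a mouse left out. No paired analysis was possible because the labels give no number shared between the groups that pairs mice. The low counts of *Il1b*, *Il1rn*, *Il1f9* and *Il1r2* limit their precision.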
